A study of Mus musculus with 12 samples.

Results

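Mcpt4, Cpa3, Cma1, Hdc, Tpsb2, Fcer1a and Ms4a2 are 7 genes that mark mast cells. They were taken by name from a table of 23406 genes measured by RNA sequencing of total RNA in mammospheres, the floating spheres that mammary cells form in suspension culture. Cultures at their second passage came from C57BL/6J mice, and the 12 libraries form 4 groups of 3: p66Shc knockout (KO, p66-/-) at 12 months of age, KO at 2 months, wild type (WT) at 12 months and WT at 2 months. p66Shc is the longest protein made from Shc1, an adaptor linked to oxidative stress. The labels name no tissue-limited deletion and no agent given to any group. The series design text names 3 young and 3 aged mice of each genotype without tying a library to 1 mouse, and the spread given here is that between libraries. The 7 genes were chosen by their levels in these same libraries, and those levels, group means and differences are therefore given as a description with no test.

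Mast cells are resident immune cells of connective tissue and mucosa that store preformed mediators in granules. The granules hold proteases bound to proteoglycan, namely chymases, tryptases and carboxypeptidase A3, together with histamine, which histidine decarboxylase makes from histidine. The high-affinity IgE receptor on the surface is built from an α chain that binds IgE, a β chain that amplifies the signal and γ chains shared with other Fc receptors, and its crosslinking by antigen releases the granules. In the mammary gland mast cells lie in the stroma around ducts.

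All 7 genes had the same broad order of levels. They were highest in KO at 12 months or WT at 2 months and lowest in KO at 2 months or WT at 12 months. Their summed level was 180, 200 and 216 CPM (read counts relative to the scaled library size, as deposited) in the 3 libraries of KO at 12 months, against 31.3, 32.0 and 34.3 CPM in KO at 2 months. In WT it was 43.9, 53.2 and 55.4 CPM at 12 months, against 145, 143 and 129 CPM at 2 months. Age thus ran with a higher level in KO and a lower level in WT, with no overlap of libraries in either. In a bulk library, fewer cells of a type and less RNA per cell cannot be told apart.

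The deposited table places the genes on 6 chromosomes of mm10, with Mcpt4 and Cma1 together on chromosome 14. The starts below are counted from 1. Mcpt4 lies at 56059744 to 56062310 and Cma1 at 55941451 to 55944661, both on the minus strand. Cpa3 lies on chromosome 3 (20215616 to 20242181, minus), Hdc on chromosome 2 (126593668 to 126618665, minus) and Tpsb2 on chromosome 17 (25366333 to 25368092, plus). Fcer1a lies on chromosome 1 (173221271 to 173227229, minus) and Ms4a2 on chromosome 19 (11615521 to 11623719, minus). In GENCODE vM21 the one other gene with an exon overlapping any of these spans is the microRNA gene Mir7007, in Cpa3 and on its strand.

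Since the 7 genes, on 6 chromosomes, shared high and low groups, their promoters were read from RefSeq (GRCm38.p6), which had a window of 250 bases before and 50 after the start for 6 of them, Tpsb2 not among these. Capitals mark GATAA or its reverse complement TTATC, the core letters that GATA factors bind, since GATA1 and GATA2 are known regulators of mast-cell genes. Shown 5′ to 3′ on the gene's strand are the carboxypeptidase Cpa3, with the highest level per kilobase in KO at 12 months, both chymases, whose ratios for age in KO were 29.9 and 5.57, and the IgE receptor β chain, which has the most matches.
Cpa3 (chr3:20242132-20242431, minus strand): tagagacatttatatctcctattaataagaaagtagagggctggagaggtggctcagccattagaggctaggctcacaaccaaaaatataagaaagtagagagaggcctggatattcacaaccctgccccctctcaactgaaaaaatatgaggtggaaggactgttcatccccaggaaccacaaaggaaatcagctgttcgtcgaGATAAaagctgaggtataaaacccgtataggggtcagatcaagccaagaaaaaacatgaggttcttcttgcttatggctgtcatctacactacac
Mcpt4 (chr14:56062261-56062560, minus strand): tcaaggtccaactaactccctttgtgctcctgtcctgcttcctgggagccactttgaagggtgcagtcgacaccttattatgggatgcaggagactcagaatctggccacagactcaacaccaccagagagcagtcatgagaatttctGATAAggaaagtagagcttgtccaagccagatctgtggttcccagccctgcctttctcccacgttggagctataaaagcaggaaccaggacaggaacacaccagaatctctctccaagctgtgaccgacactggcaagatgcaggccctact
Cma1 (chr14:55944626-55944925, minus strand): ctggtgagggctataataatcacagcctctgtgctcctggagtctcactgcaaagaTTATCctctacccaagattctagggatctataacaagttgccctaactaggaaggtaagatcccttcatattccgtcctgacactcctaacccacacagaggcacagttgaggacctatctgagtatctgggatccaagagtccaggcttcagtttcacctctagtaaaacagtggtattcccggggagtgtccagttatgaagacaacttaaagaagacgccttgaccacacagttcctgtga
Ms4a2 (chr19:11623670-11623969, minus strand): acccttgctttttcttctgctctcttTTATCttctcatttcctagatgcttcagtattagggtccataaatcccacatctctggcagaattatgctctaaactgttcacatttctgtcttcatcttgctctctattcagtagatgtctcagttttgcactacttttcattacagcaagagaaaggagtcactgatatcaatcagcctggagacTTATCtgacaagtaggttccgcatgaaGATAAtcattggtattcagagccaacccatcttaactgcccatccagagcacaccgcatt
GATAA on either strand was found in 5 of the 6 windows (7 matches, with 3 in Ms4a2 and none in Hdc) and in 25.4% of all 32851 RefSeq windows of this length. Counted from the first transcribed base, the first letter of the match stood at -45 in Cpa3, -102 in Mcpt4 and -194 in Cma1, at -92 in Fcer1a and at -224, -37 and -10 in Ms4a2. TATAAA on either strand was present in 3 of the 6 windows and 13.6% of all windows. It began at -32 in Mcpt4 and -31 in Cpa3, each on the gene's strand, with a second match at -242 on the other strand of Cpa3 and one at -125 in Fcer1a. The E-box letters CANNTG, where N is any base, were present in 4 of 6 and in 72.3% of all windows. No match overlapped another of a different motif, and a match describes letters in the window, not a bound site.

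Cpa3, the carboxypeptidase that is stored in mast-cell granules with the chymases, had the highest level per kilobase of transcript in 3 of the 4 groups. It measured 73.9, 74.8 and 80.8 CPM in KO at 12 months, against 10.9 to 11.1 CPM in the 3 libraries of KO at 2 months. WT libraries had 10.3, 12.6 and 11.4 CPM at 12 months, against 53.9, 47.2 and 42.1 CPM at 2 months. The levels of KO at 2 months and WT at 12 months overlapped, and the other groups stood apart. The ratio of the group means was 6.97 for age in KO, and 0.240 for age in WT. On the log2(CPM + 0.5) scale the age difference was 2.75 ± 0.09 in KO and -2.01 ± 0.09 in WT (SE from the model of all 12 libraries, n = 3 per group).

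Mcpt4, a chymase of connective-tissue mast cells, had the widest range. It measured 8.54, 9.28 and 12.0 CPM in KO at 12 months, against 0.243, 0.345 and 0.411 CPM in KO at 2 months, which are 9, 16 and 16 reads. WT libraries had 0.334, 0.361 and 0.343 CPM at 12 months (21, 15 and 12 reads), against 4.98, 4.90 and 4.06 CPM at 2 months. The low groups overlap each other and lie far under the high ones, with 95% Poisson intervals, which cover counting error only, of 0.111 to 0.668 CPM over the 6 low libraries. KO at 12 months was 29.9 times KO at 2 months and 28.8 times WT at 12 months in mean CPM. WT at 12 months was 0.0745 times WT at 2 months, and KO at 2 months was 0.0717 times WT at 2 months. The log2(CPM + 0.5) scale understates this gene, with an age difference of 3.64 ± 0.13 in KO and -2.60 ± 0.13 in WT; with a pseudocount of 0.1 CPM the KO difference was 4.54.

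**Figure D1:**
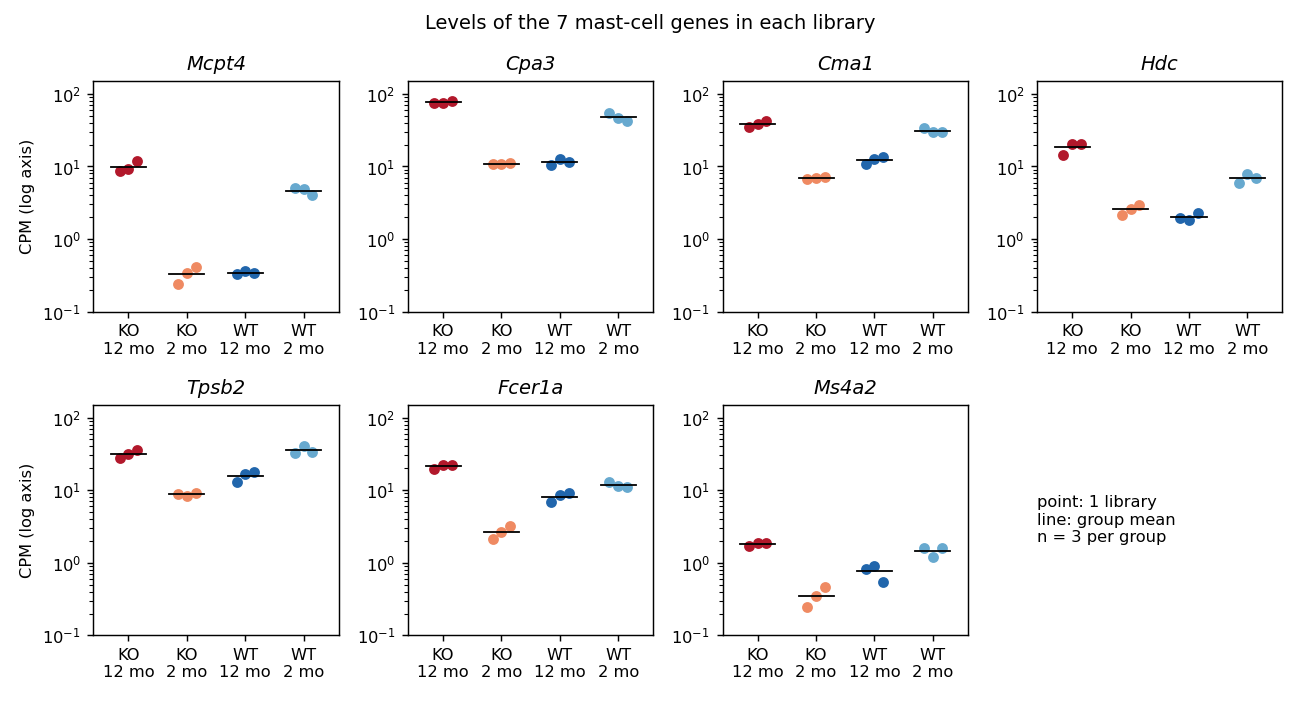
Levels of the 7 genes in CPM on a log axis, by group, with 1 point per library and a line at the group mean (n = 3). In every panel the 12-month KO and 2-month WT points lie above the 2-month KO and 12-month WT points, and Mcpt4 has the widest gap, 9.95 against 0.333 CPM in mean for age in KO.

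Cma1, the other chymase (also called mast cell protease 5), had smaller differences. Its levels were 34.9, 38.9 and 42.1 CPM in KO at 12 months, against 6.81, 6.85 and 7.12 CPM in KO at 2 months. In WT they were 10.9, 12.5 and 13.6 CPM at 12 months, against 33.4, 29.8 and 29.5 CPM at 2 months. All 4 groups stood apart, so that, unlike Cpa3 and Mcpt4, Cma1 was lower in KO at 2 months than in every library of WT at 12 months. The age difference was 2.39 ± 0.09 log2 in KO and -1.29 ± 0.09 in WT.

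Tpsb2, a tryptase of mast-cell granules, was the one gene with its highest mean in WT at 2 months. It had 27.7, 31.9 and 35.98 CPM in KO at 12 months, against 8.73, 8.33 and 9.13 CPM in KO at 2 months. WT libraries had 12.8, 16.5 and 17.9 CPM at 12 months, against 32.4, 41.1 and 33.9 CPM at 2 months. KO at 12 months and WT at 2 months overlapped, and the 12-month KO mean was 2.03 times the 12-month WT mean. Tpsb2 has a close paralogue, Tpsab1, and how reads that map to both were handled is not given in the sources used here, so the split between them is uncertain. The mean Tpsab1 to Tpsb2 ratio was 0.0843 in KO at 12 months, 0.0810 in KO at 2 months, 0.0791 in WT at 12 months and 0.0488 in WT at 2 months.

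Hdc, which makes histamine, had 14.3, 20.5 and 20.4 CPM in KO at 12 months, against 2.16, 2.61 and 2.91 CPM in KO at 2 months. WT libraries had 1.92, 1.83 and 2.32 CPM at 12 months, against 5.96, 7.82 and 6.86 CPM at 2 months. The low groups overlapped. KO was 9.10 times WT at 12 months in mean CPM, next to Mcpt4 the widest of the 7, and 0.372 times WT at 2 months, the ratio closest to 1 of the 7. The differences were 2.89 ± 0.15 log2 at 12 months and -1.27 ± 0.15 at 2 months.

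The IgE receptor genes shared the order of groups. Fcer1a, the α chain, had 19.3, 22.3 and 22.5 CPM in KO at 12 months, against 2.14, 2.63 and 3.19 CPM in KO at 2 months. In WT the 3 libraries had 6.78, 8.46 and 9.24 CPM at 12 months, against 12.8, 11.3 and 11.1 CPM at 2 months. The groups of Fcer1a stood apart, and its age difference in WT was the smallest of the 7, at -0.51 ± 0.13 log2, against 2.80 ± 0.13 in KO. Ms4a2, the β chain, had the lowest level per kilobase of the 7 in 3 of the 4 groups, with 1.68, 1.87 and 1.85 CPM in KO at 12 months, against 0.243, 0.345 and 0.463 CPM in KO at 2 months (9, 16 and 18 reads). WT libraries had 0.826, 0.914 and 0.544 CPM at 12 months, against 1.62, 1.19 and 1.60 CPM at 2 months. The 12-month KO libraries of Ms4a2 were all above the 2-month WT libraries, by as little as 1.68 against 1.62 CPM. The γ chain Fcer1g, which macrophages and other cells also use, did not follow: it averaged 8.69 CPM in KO at 12 months, 13.9 in KO at 2 months, 11.5 in WT at 12 months and 13.7 in WT at 2 months.

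Counted over the 7, the libraries of all 7 genes were higher at 12 than at 2 months in KO and lower in WT, higher in KO than in WT at 12 months and lower at 2 months, with no overlap in any of the 4 comparisons. Of the 13961 genes averaging 0.5 CPM or more, 35.3% were so placed higher with age in KO, 38% lower with age in WT, 32.9% higher in KO at 12 months and 27.5% lower in KO at 2 months. The choice of the genes fixed their own count, and nothing is read from it. All 7 passed the filter on low values. Ratios of the group means ran from 3.65 (Tpsb2) to 29.9 (Mcpt4) for age in KO, and from 0.0745 (Mcpt4) to 0.695 (Fcer1a) for age in WT. KO over WT ran from 2.03 (Tpsb2) to 28.8 (Mcpt4) at 12 months and from 0.0717 (Mcpt4) to 0.372 (Hdc) at 2 months. Between groups that differ in both age and genotype, KO at 12 months was above WT at 2 months without overlap in 6 of the 7, and KO at 2 months was below WT at 12 months without overlap in 4 and overlapped it in 3. The share of all genes so placed was not counted for these groups, and nothing is read from these counts either.

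The genes did not keep fixed proportions. Cpa3 made up 38.6% ± 2.06 of the summed level in KO at 12 months and 33.8% ± 1.40 in KO at 2 months, against 22.6% ± 1.69 in WT at 12 months and 34.2% ± 2.54 in WT at 2 months (SD, n = 3). Tpsb2 took 16.0% ± 0.67 in KO at 12 months, 26.9% ± 0.97 in KO at 2 months, 30.8% ± 1.54 in WT at 12 months and 25.8% ± 3.20 in WT at 2 months. WT at 12 months was thus the group in which Tpsb2 exceeded Cpa3, also per kilobase. Fcer1a to Cpa3 was 0.279 ± 0.0190 in KO at 12 months, 0.242 ± 0.0467 in KO at 2 months, 0.712 ± 0.0830 in WT at 12 months and 0.247 ± 0.0149 in WT at 2 months. The lowest 12-month WT library, at 0.657, was above every other library, the highest of which was 0.299. Mcpt4 to Cpa3 divided the groups another way, at 0.130 ± 0.0174 in KO at 12 months, 0.0303 ± 0.00758 in KO at 2 months, 0.0303 ± 0.00188 in WT at 12 months and 0.0976 ± 0.00582 in WT at 2 months.

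**Figure D2:**
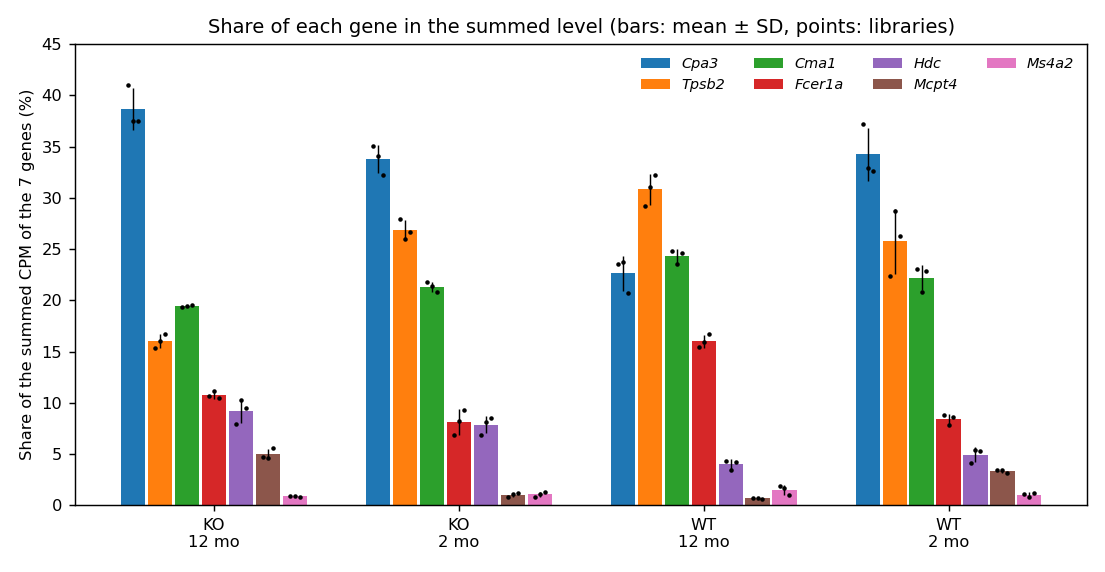
Share of each of the 7 genes in their summed CPM, in percent, by group, with bars at the mean, error bars of 1 SD and points for the 3 libraries. Cpa3 leads in 3 groups, while in WT at 12 months Tpsb2 leads with 30.8% and Fcer1a has its highest share, 16.0%.

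Per kilobase of the longest GENCODE transcript, Cpa3 led in KO at 12 months with 52.8 CPM per kb, followed by Cma1 with 35.4, Tpsb2 with 24.7, Fcer1a with 21.4, Mcpt4 with 8.98, Hdc with 4.08 and Ms4a2 with 0.752. In KO at 2 months Cpa3, Tpsb2 and Cma1 lay within 6.36 to 7.57 CPM per kb. In WT at 12 months Tpsb2 led with 12.2, ahead of Cma1 with 11.3, Fcer1a with 8.18 and Cpa3 with 7.91. In WT at 2 months the order at the top was Cpa3 with 32.9, Cma1 with 28.4 and Tpsb2 with 27.8.

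Other mast-cell genes were tested on 8 lists of 55 genes, of which 40 passed the filter. A gene was called at an adjusted p under 0.05 in limma, with Benjamini-Hochberg adjustment over all genes tested. With age in KO 19 of the 40 rose and 12 fell, where 32.9% and 34.2% of all genes did. With age in WT 5 rose and 22 fell, against 22.3% and 35.6% of all genes. KO against WT was higher for 18 and lower for 11 at 12 months (31.3% and 38.9% of all genes), and higher for 1 and lower for 16 at 2 months (1.86% and 14.2%), the 1 being Cma2, whose call was lost with no filter, with a pseudocount of 0.1 CPM and in 5 of the 12 fits that left out 1 library. The age effect was more positive in KO than in WT for 20 and more negative for 4, against 31.4% and 26.2% of all genes. The median log2 difference of the 40 was 0.26 for age in KO, -0.40 for age in WT, 0.17 for KO minus WT at 12 months and -0.26 at 2 months, beside medians over all genes tested of -0.02 for age in KO, -0.08 for age in WT, -0.07 at 12 months and -0.09 at 2 months. The count at 2 months was 11 in place of 17 when the reads were rescaled over all 12 libraries.

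Several of them had the high and low groups seen in the 7. Il1rl1, the receptor of the cytokine Il33, averaged 1960 CPM in KO at 12 months and 424 in KO at 2 months, against 344 in WT at 12 months and 673 in WT at 2 months. The highest group mean of the 7 was 76.5 CPM, for Cpa3 in KO at 12 months, and which cells made the Il1rl1 RNA was not tested. Tpsab1, the second tryptase, had 2.68 ± 0.37 CPM in KO at 12 months and 0.708 ± 0.05 in KO at 2 months, against 1.22 ± 0.05 in WT at 12 months and 1.75 ± 0.21 in WT at 2 months. It rose by 1.39 ± 0.11 log2 with age in KO (adjusted p = 1.69e-07) and fell by 0.38 in WT (adjusted p = 0.0109), a fall that DESeq2 did not call. Mrgprb2, the receptor through which peptides and drugs activate mouse mast cells without IgE, had 2.59 ± 0.40 CPM in KO at 12 months and 0.877 ± 0.06 in KO at 2 months, against 1.16 ± 0.25 in WT at 12 months and 2.68 ± 0.32 in WT at 2 months. Its relative Mrgprb1 had 20.4 ± 1.35 CPM in KO at 12 months and 4.21 ± 0.59 in KO at 2 months, against 6.05 ± 0.86 in WT at 12 months and 16.0 ± 0.78 in WT at 2 months. The excess of the age effect in KO over WT was 3.50 log2 for Mrgprb1 (adjusted p = 1.35e-09) and 2.103 for Mrgprb2 (adjusted p = 6.67e-07); the family has close copies, so the split of reads among them is uncertain. Tph1, which makes serotonin in mast cells and gut, averaged 6.35 CPM in KO at 12 months and 1.02 in KO at 2 months, against 2.21 in WT at 12 months and 3.38 in WT at 2 months, and was called in all 5 comparisons. Cd200r3, an activating receptor of mast cells and basophils, averaged 1.11 CPM in KO at 12 months and 0.40 in KO at 2 months, against 0.68 in WT at 12 months and 0.94 in WT at 2 months, and was called in KO with age (0.83, adjusted p = 5.42e-05) and not in WT (-0.28, adjusted p = 0.0672), the difference between the age effects being 1.12 (adjusted p = 0.000118).

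Many other listed genes departed from this order in whole or in part. Kit, the stem cell factor receptor of mast cells and also of luminal mammary progenitors, rose with age in both genotypes, averaging 60.3 CPM in KO at 12 months and 4.60 in KO at 2 months, against 83.6 in WT at 12 months and 11.1 in WT at 2 months. Srgn, on the list of granule proteoglycan and amine storage with Tph1, had its higher mean at 12 months in both genotypes. In KO Srgn averaged 60.8 CPM at 12 months and 36.2 at 2 months, and in WT 51.4 and 25.7. Slc18a2, on the same list, averaged 10.5 CPM in KO at 12 months and 5.81 at 2 months. In WT Slc18a2 averaged 6.40 CPM at 12 months and 6.16 at 2 months. Gata2 was called in none of the 5 comparisons, with group means of 1.01 to 1.33 CPM, and Gata1 had at most 0.18 CPM in group mean. Mitf averaged 191 CPM in KO at 12 months and 125 in KO at 2 months, against 76.5 in WT at 12 months and 127 in WT at 2 months. Of the 11 genes of IgE receptor signalling 4 rose and 4 fell with age in KO, and 1 rose and 8 fell in WT, where 32.9% and 34.2% of all genes rose and fell in KO and 22.3% and 35.6% in WT. The calls of Lyn and Lcp2 in KO and Plcg1 in WT were each lost under at least 1 other tool or filter, and these and that of Plcg2 in KO in some fits that left out 1 library. Among those that rose in KO were the kinase Fyn (0.44) and the adaptor Gab2 (0.73). Among those that fell were the kinases Syk (-0.34) and Btk (-0.91) and the adaptor Lat2 (-0.96). Fyn and Gab2 did have the high and low groups of the 7, without overlap between high and low libraries. In KO, Fyn averaged 106 CPM at 12 months and 77.8 at 2 months, and Gab2 120 and 72.2. In WT, Fyn averaged 57.4 CPM at 12 months and 92.8 at 2 months, and Gab2 59.9 and 79.8. Csf2rb, Lat, Lcp2, Ndst2 and Tslp had those groups in their means, as did Mitf, Tal1, Il33 and the uncalled Gata2. For Mitf the libraries of KO at 2 months (121 to 128 CPM) overlapped those of WT at 2 months (125 to 131). Of 5 tested genes of eicosanoid synthesis none rose with age, 4 fell in KO (34.2% of all genes) and 3 fell in WT (35.6%). Hpgds, the prostaglandin D2 synthase of mast cells and macrophages, was among those in KO (-0.93, adjusted p = 9.32e-05), as was Ptgs1, whose call was lost in DESeq2 and without replicate 1 or 2 of KO at 2 months or replicate 3 of KO at 12 months. Il33, a cytokine that activates mast cells, averaged 818 CPM in KO at 12 months and 266 in KO at 2 months, against 199 in WT at 12 months and 283 in WT at 2 months, and its libraries in KO at 2 months (252 to 279 CPM) overlapped those in WT at 2 months (265 to 297). Kitl, the ligand of Kit, was called in none of the 5, with means of 257 to 291 CPM. Il3, Il4 and Il9 stayed at or under 0.05 CPM in every group mean.

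**Figure D3:**
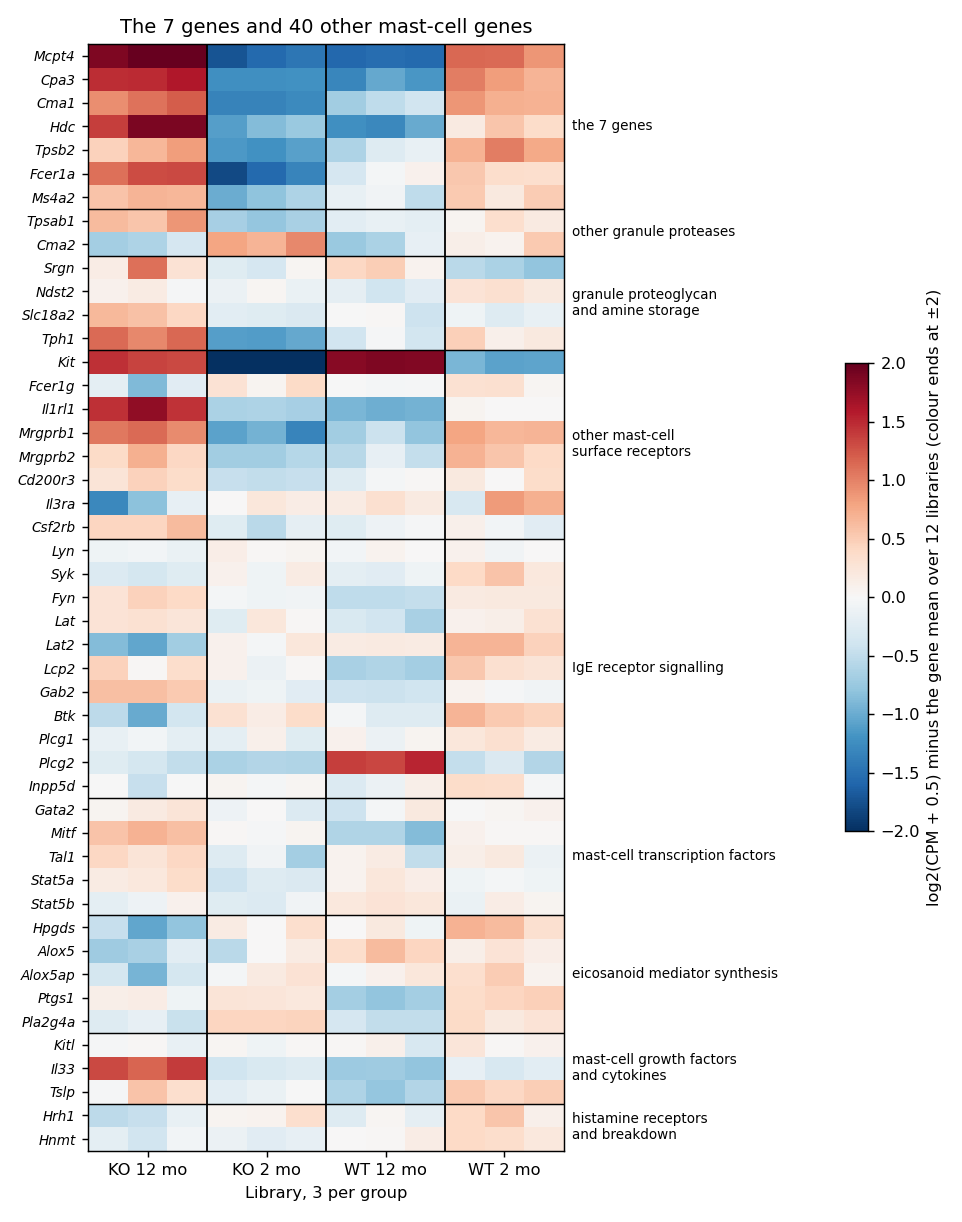
Heat map of the 7 genes and the 40 other mast-cell genes that passed the filter, by role, in 12 libraries; colour is log2(CPM + 0.5) minus the mean of the gene, with the scale ending at ±2. Tpsab1, Tph1, Il1rl1, Mrgprb1 and Mrgprb2 have the same high and low groups as the 7 at the top, while Kit is high at 12 months in both genotypes and Plcg2 is high in WT at 12 months.

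Mcpt4 and Cma1 belong to a cluster of serine protease genes on chromosome 14, and their neighbours had another pattern. From Cma1 to Gzmb the deposited table lists 16 genes over 321 kb, of which 5 (Cma1, Cma2, Mcpt4, Mcpt8 and Gzme) passed the filter and 2 (Gzmf and Gzmc) had no read. Mcpt4 lies 115 kb from Cma1, and Mcpt8 starts 19.9 kb beyond Mcpt4. Mcpt8, a protease known from mouse basophils, averaged 19.8 ± 4.06 CPM in KO at 12 months and 63.6 ± 3.45 in KO at 2 months, against 19.9 ± 1.04 in WT at 12 months and 44.1 ± 1.83 in WT at 2 months. It fell with age by 1.68 log2 in KO (adjusted p = 2.81e-08) and by 1.13 in WT (adjusted p = 1.38e-06), and was higher in KO than in WT at 2 months (0.52, adjusted p = 0.00681). Cma2, in the same cluster, averaged 0.727 CPM in KO at 12 months and 2.63 in KO at 2 months, against 0.764 in WT at 12 months and 1.61 in WT at 2 months, and fell with age in KO (-1.35, adjusted p = 1.24e-05) and in WT (-0.74, adjusted p = 0.00214). Gzme, a granzyme singled out after its values were seen, averaged 0.108 CPM in KO at 12 months and 1.001 in KO at 2 months, against 0.549 in WT at 12 months and 0.808 in WT at 2 months, and fell with age in KO (-1.30, adjusted p = 1.83e-06). Mcpt1 reached at most 0.54 CPM in any library, Mcpt9 0.568 and Mcpt2, a mucosal mast-cell protease, 0.082. These proteases are similar in sequence, and reads shared among them may have been split.

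**Figure D4:**
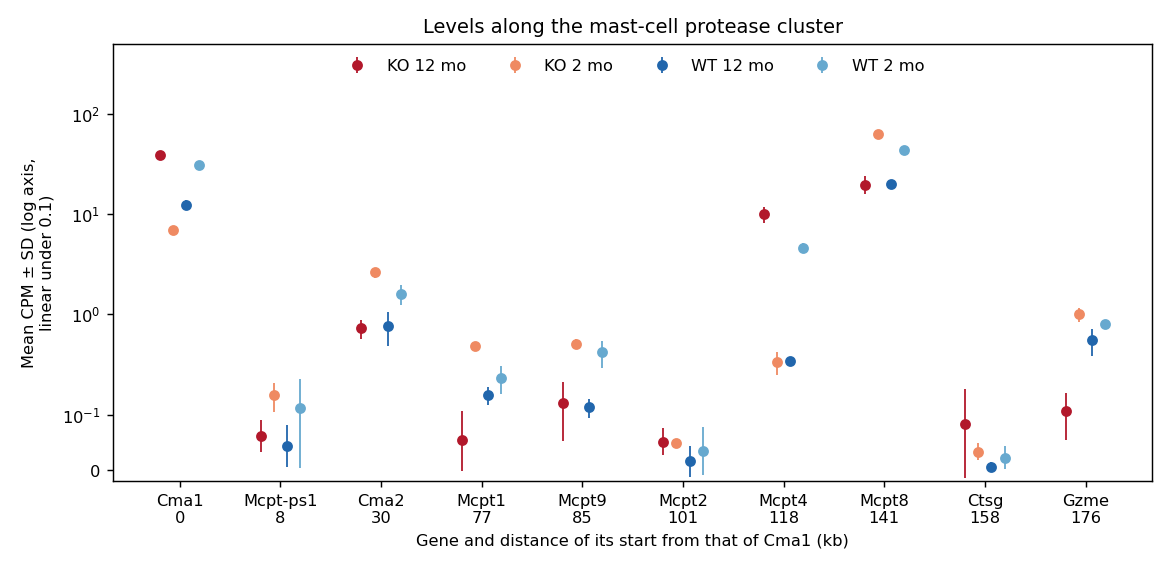
Mean CPM ± SD (n = 3) for the first 10 genes of the chromosome 14 protease cluster, placed in order with the distance in kb from the start of Cma1; the vertical axis is logarithmic above 0.1 and linear below. Cma1 and Mcpt4 have the 12-month KO mean on top, while Mcpt8, Cma2, Mcpt1, Mcpt9 and Gzme have the 2-month KO mean on top.

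The patterns most like that of the 7 were found by Pearson correlation with their mean log2(CPM + 0.5) over the 12 libraries, with points that share 4 group levels. Left out in turn, each of the 7 correlated at 0.902 (Fcer1a) to 0.983 (Cma1) with the mean of the other 6, and ranked from 4 (Cma1) to 146 (Fcer1a) among 13169 genes. The choice of the 7 fixed this likeness, and nothing is read from it. Among genes outside the 7, leaving out predicted genes, the closest was Mrgprb1 with r = 0.982. The next were Samhd1 with 0.981, which degrades nucleotides and restricts viruses, Ablim3 with 0.977, Xdh with 0.971, Ablim1 with 0.968, Zc3hav1 with 0.967, an antiviral RNA-binding protein, Irf4 with 0.965, a transcription factor of immune cells, Serpine2 with 0.965, Pygl with 0.962 and Mrgprx2 with 0.960. Several of these varied less: Samhd1 averaged 49.1 CPM in KO at 12 months and 31.8 in KO at 2 months, against 33.7 in WT at 12 months and 42.0 in WT at 2 months. Irf4 averaged 4.86 CPM in KO at 12 months and 1.66 in KO at 2 months, against 2.35 in WT at 12 months and 4.87 in WT at 2 months. Mrgprx2 averaged 4.50 CPM in KO at 12 months and 1.25 in KO at 2 months, against 1.54 in WT at 12 months and 4.54 in WT at 2 months. When 1 of the 7 was left out of the mean, 7 or 8 of these 10 genes stayed among the 10.

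Markers of other blood cells were read beside the 7. Basophil genes summed to 18.1 to 25.5 CPM in KO at 12 months, 61.9 to 68.6 in KO at 2 months, 19.9 to 21.8 in WT at 12 months and 43.7 to 47.4 in WT at 2 months, nearly all of it Mcpt8, while Prss34, the other basophil protease, averaged at most 0.06 CPM. Itga2b, an integrin of platelets that was on the same list, averaged 2.099 CPM in KO at 12 months and 0.871 in KO at 2 months, against 1.23 in WT at 12 months and 1.33 in WT at 2 months. It rose with age in KO (0.92, adjusted p = 7.12e-05) and was not called in WT (-0.09, adjusted p = 0.595). The 4 pan-leukocyte genes summed to 32.9 to 51.9 CPM in KO at 12 months, 67.2 to 80.4 in KO at 2 months, 52.8 to 56.8 in WT at 12 months and 76.4 to 93.7 in WT at 2 months. Relative to that sum, the 7 genes together stood at 4.57 ± 1.34 in KO at 12 months, 0.441 ± 0.031 in KO at 2 months, 0.916 ± 0.074 in WT at 12 months and 1.64 ± 0.095 in WT at 2 months. On this scale Fcer1a in WT stood at 0.147 per unit of the leukocyte sum at 12 months, against 0.139 at 2 months, a difference in the other direction from that in CPM. Macrophage genes, all 7 of them above the filter, summed to 204 to 407 CPM in KO at 12 months, 331 to 428 in KO at 2 months, 315 to 355 in WT at 12 months and 392 to 480 in WT at 2 months. Of these only Mrc1, the mannose receptor, rose with age in KO (0.86, adjusted p = 0.00563), and it fell in WT (-0.74). Mrc1 averaged 179 CPM in KO at 12 months and 93.2 in KO at 2 months, against 71.8 in WT at 12 months and 121 in WT at 2 months, with replicate 2 of KO at 12 months (99.6 CPM) inside the range of KO at 2 months. The other 6 fell with age in KO, among them the complement gene C1qa (-1.77). Of all genes 32.9% rose and 34.2% fell with age in KO. The lowest macrophage and pan-leukocyte sums were both in replicate 2 of KO at 12 months, whose 7 genes summed to 200 CPM, between the other libraries of its group. The 5 eosinophil genes summed to at most 0.719 CPM, the 4 B-cell genes to at most 0.41 and the 5 T- and NK-cell genes in the table to at most 1.48, and the T-cell gene Cd3e and the NK-cell gene Ncr1 were at or near 0.

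The summed muscle markers, mostly Ttn, had the same high and low groups as the 7 genes. Skeletal muscle genes (Ttn, Myh3, Acta1 and Myog) summed to 1474, 778 and 1112 CPM in KO at 12 months and 279, 237 and 224 in KO at 2 months, against 158, 177 and 178 in WT at 12 months and 915, 939 and 806 in WT at 2 months. Ttn, the giant sarcomere protein, averaged 1046 CPM in KO at 12 months and 208 in KO at 2 months, against 145 in WT at 12 months and 711 in WT at 2 months. With age in KO, Ttn (2.29), the myosin Myh3 (1.68) and the transcription factor Myog (0.54) rose, the 12- and 2-month libraries of Myog overlapping, and the actin Acta1 was not called (0.52, adjusted p = 0.0836). All 4 fell with age in WT. Of all genes 32.9% rose with age in KO and 35.6% fell with age in WT. The 4 endothelial genes summed to 205 to 217 CPM in KO at 12 months, 55.0 to 59.4 in KO at 2 months, 85.0 to 95.3 in WT at 12 months and 82.7 to 89.6 in WT at 2 months. Fibroblast genes summed to 7214 to 8254 CPM in KO at 12 months, 7942 to 8814 in KO at 2 months, 5395 to 5690 in WT at 12 months and 8319 to 8788 in WT at 2 months. That sum hides a split among its 4 genes. Dcn, a proteoglycan of connective tissue, averaged 4137 CPM in KO at 12 months and 2525 in KO at 2 months, against 1679 in WT at 12 months and 3341 in WT at 2 months. Pdgfra, a growth factor receptor of fibroblasts, averaged 951 CPM in KO at 12 months and 525 in KO at 2 months, against 390 in WT at 12 months and 605 in WT at 2 months. These genes rose with age in KO (0.71 for Dcn, 0.86 for Pdgfra) and fell in WT, while the collagen genes Col1a1 and Col3a1 fell in KO (-1.02 each) and in WT (-0.37 and -0.42). Luminal epithelial genes, checked because the label names mammospheres, summed to 2133 to 2292 CPM in WT at 12 months and to 188 to 332 CPM in the other groups, and basal genes to 70.1 to 75.3 CPM in WT at 12 months and 11.01 to 36.3 in the others. The neutrophil list summed to 37.5 to 45.6 CPM in KO at 12 months, 8.38 to 10.9 in KO at 2 months, 19.2 to 24.4 in WT at 12 months and 12.8 to 13.3 in WT at 2 months, nearly all S100a8, which epithelium can also make. The part of these cell types in the levels of the 7 was not tested.

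**Figure D5:**
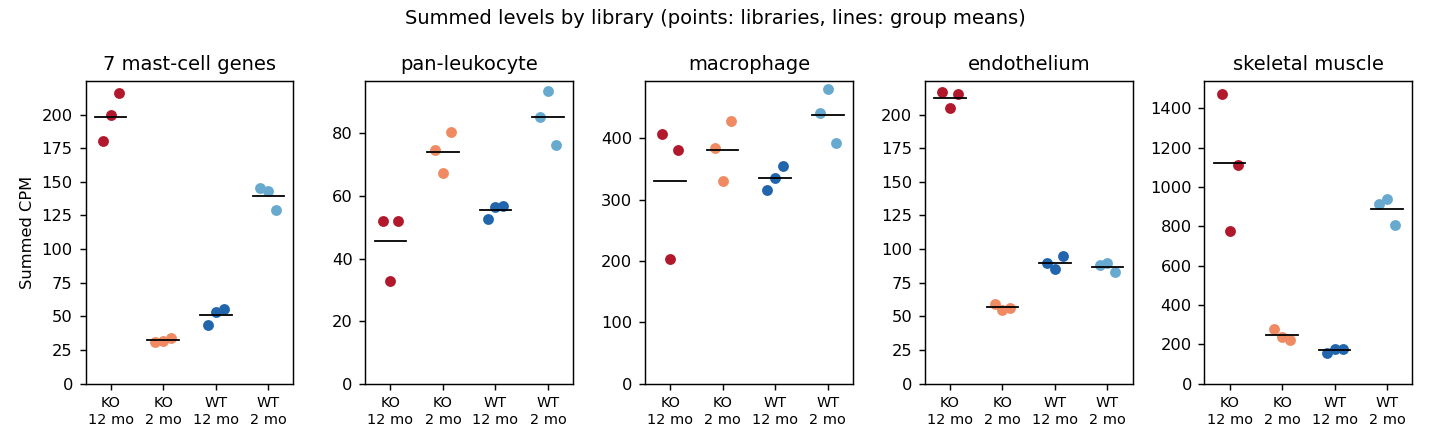
Summed CPM per library of the 7 mast-cell genes and of the pan-leukocyte, macrophage, endothelial and skeletal muscle lists, on axes that start at 0, with points for libraries and lines at group means. The sum of the muscle list, mostly Ttn, shares the high and low groups of the 7 genes, while the pan-leukocyte list is lowest in KO at 12 months, at 32.9 to 51.9 CPM.

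Reads assigned to genes numbered 31845169 to 109079737 per library, and 3 reads stood for 0.0290 to 0.0859 CPM. Shc1, the gene whose longest isoform is deleted, averaged 170 ± 7.60 CPM in KO at 12 months and 208 ± 0.329 in KO at 2 months, against 211 ± 8.44 in WT at 12 months and 296 ± 25.3 in WT at 2 months. The count does not separate Shc1 isoforms, so this checks the genotype labels only in part.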

How the data were processed

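Total RNA of 12 mammosphere libraries was isolated with the PicoPure kit and prepared with the TruSeq Stranded total RNA kit, per the labels' protocols. Per the submitters' processing notes, the tools were TopHat2 2.1.0 with Bowtie2 2.2.4, SAMtools 0.1.18 and HTSeq 0.6.1p1 on mm10. How the counting treated strand and reads of several positions, and its annotation, is not given in those notes. The deposited signal values are TMM-normalized CPM (trimmed mean of M-values, in edgeR), per the file headers.

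Dividing each value by the CPM of 1 read gave whole reads (within 0.1) for 100% of values. The deposited starts count from 0 and 1 was added. The 13961 genes averaging 0.5 CPM or more were fitted as log2(CPM + 0.5) with the trended limma 3.58.1 fit under R 4.3.3, in 1 model of the 4 groups and 8 residual degrees of freedom. Low genes have understated differences on this scale. Benjamini-Hochberg adjustment covered all genes tested. The fixed design named this test for CPM. The 7 genes and all lists were chosen with earlier results of these data known. Genes are named by a rule: the 7, the mast-cell lists, the summed levels and defining genes of the marker lists, Shc1, and the 10 genes of most similar pattern. The lists' Aoc1, Adgre1 and Siglecf are Abp1, Emr1 and Siglec5 in the table, and Ly6g and Trac were not matched. The fit was tested on simulated data in which a small part of the genes was changed, in KO at 12 months only. Many more genes were called in the real data, so that test does not cover their scaling or error rate. Alternatives were 2 pseudocounts, 2 filters, TMM over all 12 libraries, edgeR 4.0.16 and DESeq2 1.42.0 on the recovered reads, a replicate block, leaving out each library, and levels relative to the pan-leukocyte genes Ptprc, Cd52, Coro1a and Laptm5.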

Additional observations from a re-analysis of the deposited data

Results flagged for a closer look

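The age difference of the 7 genes ran in opposite directions in the genotypes: every 12-month library was above every 2-month library in KO and below it in WT. Of all genes tested, 35.3% were so placed higher with age in KO and 38% lower with age in WT. The log2 age effect of KO minus the one of WT was Mcpt4 at 6.24, Cpa3 at 4.75, Cma1 at 3.69, Hdc at 4.16, Tpsb2 at 2.97, Fcer1a at 3.31 and Ms4a2 at 2.09. The genes were chosen by these levels, so this difference was not tested.

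Of the 40 other mast-cell genes tested, 24 had an age effect that differed between KO and WT in limma's interaction term, at an adjusted p of 0.0459 or less. Over all genes tested the effect was more positive in KO for 31.4% and more negative for 26.2%. It was more positive for 20 of the 24, in log2: Mrgprb1 at 3.50, Il1rl1 at 3.17, Tph1 at 2.68, Il33 at 2.12, Mrgprb2 at 2.103, Tpsab1 at 1.77 and Tslp at 1.54. It was also more positive for Mitf at 1.34, Lcp2 at 1.31, Gab2 at 1.14, Fyn at 1.13, Cd200r3 at 1.12, Ptgs1 at 0.96 and Lat at 0.89. The rest of the 20 were Csf2rb at 0.88, Tal1 at 0.85, Slc18a2 at 0.76, Kit at 0.72, Ndst2 at 0.68 and Stat5a at 0.35. It was more negative in KO for 4 of them, Plcg2 at -1.62, Alox5 at -0.70, Cma2 at -0.61 and Lat2 at -0.53. The call of Cma2 was lost with a pseudocount of 0.1 CPM, with no filter, in edgeR and in DESeq2, and was lost in 8 of the 12 fits that left out 1 library; that of Alox5 was lost in 7 of them.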

How the results depend on the processing

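The direction of the 35 log2 differences of the 7 genes (5 comparisons each) was kept under every setting that gave a value, with 1 exception. Relative to the pan-leukocyte sum the age difference of Fcer1a in WT was 0.082, and there a further 31 of the 35 moved by more than the spread between libraries. This setting also used no pseudocount, so its moves mix the loss of the pseudocount with the leukocyte scaling. Sizes also moved for 13 with a pseudocount of 0.1 CPM, 13 with 1 CPM, 14 in edgeR and 16 in DESeq2. None moved by that much with no filter, with TMM over all 12 libraries or without any single library, and a filter at 2 CPM left out Ms4a2.

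Of the counts of other mast-cell genes, the one for KO against WT at 2 months moved from 17 to 11 with TMM over all 12 libraries and to 11 in edgeR, both with 1 higher and 10 lower, the calls lost including Fyn, Lcp2, Ndst2, Plcg1, Stat5a and Syk. The edgeR fit used the same scaling, so these settings are not separate checks. DESeq2, with its own scaling, gave 14. TMM over all 12 libraries shifted the mean log2 library size by -0.05 in KO at 12 months and -0.05 in KO at 2 months. The shift in WT was -0.03 at 12 months and 0.04 at 2 months. The cause of the lower count was not tested. Leaving out single libraries gave 27 to 31 for age in KO, 25 to 29 for age in WT, 25 to 29 at 12 months, 12 to 18 at 2 months and 22 to 25 for the interaction.

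Same-numbered libraries deviated together at correlations of -0.16 to 0.59. Libraries of different numbers were not compared in this way, so whether the numbers pair the samples cannot be told. With a replicate block the counts were 32 for age in KO, 27 for age in WT, 29 at 12 months, 17 at 2 months and 24 for the interaction. Under 20 reads, as for Mcpt4 in KO at 2 months, counting error limits a single library's value.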
